A study of Arabidopsis thaliana with 6 samples.

Results

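The enzymes that open the phenylpropanoid pathway were followed in an Arabidopsis thaliana cell culture through 5 probe sets out of the 22746 tested on the Affymetrix ATH1 array. The probe sets were taken by identifier, with earlier results of these data known. They are 263845_at for PAL1 (AT2G37040), 251984_at for PAL2 (AT3G53260), 267470_at for C4H (AT2G30490), 256186_at for 4CL1 (AT1G51680) and 258047_at for 4CL2 (AT3G21240). The culture was mixotrophic, so its cells photosynthesise and also take up organic carbon. It was harvested after 4 h with 75 µM phytoprostane A1 (PPA1), a reactive oxylipin produced by non-enzymatic oxidation of a polyunsaturated fatty acid, or after 4 h with 0.5% methanol in water as control. Each condition had 3 replicates, called independent in the labels without saying what separates them, and each replicate had its own array. No genotype or accession of the culture is given in the sources used here, and neither is the solvent of the PPA1 treatment. The design asks which transcripts respond to an oxylipin of this kind.

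Phenylalanine ammonia-lyase (PAL) removes ammonia from phenylalanine to give cinnamate, and so draws carbon out of primary metabolism. Cinnamate 4-hydroxylase (C4H), a cytochrome P450, turns cinnamate into p-coumarate, and 4-coumarate:CoA ligase (4CL) activates p-coumarate as its CoA thioester. That thioester feeds lignin, flavonoids and other phenolic compounds, and the genes of the 3 steps are known to respond together to wounding, pathogens and ultraviolet light in many plants.

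All values are the authors' normalized signals on a linear scale, and a change is the difference of mean log2 signals, PPA1 over control. Median signals per array lay between 41.9 and 51.0, and 63.1% to 68.7% of tested probe sets had signals of 16 or more, the limit used here for dim signals. PPA1 replicate 1 stood apart from the other PPA1 arrays. Over the 10135 probe sets with an average log2 signal of 6 or more, its log2 signals correlated with r = 0.833 and 0.839 with those of PPA1 replicates 2 and 3. Those 2 arrays correlated with each other at r = 0.987, and control pairs at 0.908 to 0.958. Both replicate 1 arrays, PPA1 and control, also lay below the other 4 arrays in 18 of 18 hybridisation spike probe sets, transcripts added before hybridisation, with a mean log2 signal of 8.39 on the replicate 1 arrays and 9.09 on the others. The part of either property in the results was not tested, so the changes of the enzymes and of the pathway genes named with them are given with and without PPA1 replicate 1. Of the photosynthetic marker genes, 1 of 6 could be matched to a probe set. It was rubisco activase (RCA), with signals of 1291, 945 and 1196 in PPA1 replicates 1 to 3, against 830, 730 and 1182 in control replicates 1 to 3. The root hair expansins EXPA7 and EXPA18 had mean log2 signals of 2.81 and 3.71, under the limit of dim signals.

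Every one of the 5 enzymes had its highest signal on the same array, PPA1 replicate 1. On that array their log2 signals exceeded the control means by 2.20 to 5.20, with a mean of 3.32. The same mean was 0.39 on PPA1 replicate 2 and -0.09 on PPA1 replicate 3. On PPA1 replicates 2 and 3 the enzymes went different ways: both PAL genes were below all controls, 4CL1 was above all controls, and C4H and 4CL2 overlapped with them. Such placements were common, as 34.1% of all tested probe sets lay below all controls on these arrays and 19.3% above. The placements of PAL2 and 4CL1 held under both other scalings. With each array centred on its median, PAL1 overlapped with the controls and C4H lay above them, and after quantile normalization 4CL2 lay above them; the log2 changes of PAL1 and PAL2 without PPA1 replicate 1 stayed negative, at -0.39 and -0.78 after centring and -0.50 and -0.81 after quantile normalization. In RNA from a whole culture, fewer cells that express a gene and less of its RNA per cell cannot be told apart. With all arrays in the fit, 0 of 5 enzymes passed the test (limma, Benjamini-Hochberg adjusted p from 0.218 to 0.976), where 0.809% of all tested probe sets were called higher and 0.994% lower. At an unadjusted p under 0.05 the count was also 0 of 5, against 23.0% of all tested probe sets.

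**Figure D1:**
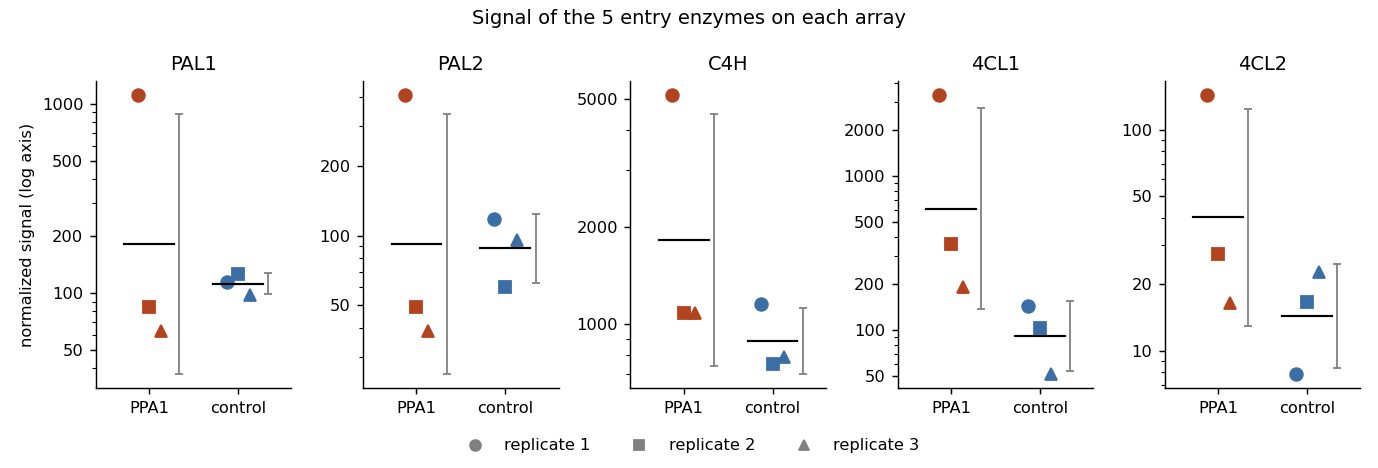
Normalized signal (log axis) of PAL1, PAL2, C4H, 4CL1 and 4CL2 on each array, PPA1 at the left and control at the right of each panel. Points are arrays with the replicate shown by shape, lines are means of log2 signals and grey bars their SD (n = 3 each); in all 5 panels the PPA1 replicate 1 point is the highest.

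PAL1, the first of the ammonia-lyases, had signals of 1111, 83.8 and 63.3 in PPA1 replicates 1 to 3, against 114, 126 and 97.4 in control replicates 1 to 3. The controls spanned only 1.30-fold, while PPA1 replicate 1 stood 8.81-fold above the highest other array and the other PPA1 arrays lay below all controls. Its mean log2 signal was 7.50 ± 2.28 after PPA1 and 6.81 ± 0.19 in controls (SD, n = 3 each). The log2 change was 0.69 (standard error 1.11, limma adjusted p = 0.739), and the 95% confidence interval ran from -2.06 to 3.44. Without PPA1 replicate 1 the direction was the opposite, at -0.62 with an interval from -1.24 to -0.01 (limma adjusted p = 0.148).

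PAL2 encodes a second ammonia-lyase that acts beside PAL1. It had signals of 407, 49.2 and 38.8 in PPA1 replicates 1 to 3, against 118, 60.3 and 96.3 in control replicates 1 to 3. As for PAL1, one PPA1 array was above every control and the others were below every control. The mean log2 signals were 6.52 ± 1.87 after PPA1 and 6.46 ± 0.50 in controls (SD, n = 3 each), a log2 change of 0.06 (standard error 0.94, limma adjusted p = 0.976). Without PPA1 replicate 1 the log2 change was -1.01 with an interval from -1.96 to -0.07 (limma adjusted p = 0.132). PPA1 replicates 2 and 3 lay below all controls in 34.1% of all tested probe sets, so this position is common on these arrays.

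C4H, the P450 of the second step, had signals of 5149, 1081 and 1081 in PPA1 replicates 1 to 3, against 1158, 753 and 792 in control replicates 1 to 3. PPA1 replicates 2 and 3 were nearly equal and within the control range. The mean log2 signals were 10.83 ± 1.30 after PPA1 and 9.79 ± 0.34 in controls (SD, n = 3 each). The log2 change was 1.04 (standard error 0.67, limma adjusted p = 0.392), and 0.29 without PPA1 replicate 1, with an interval from -0.40 to 0.98 (limma adjusted p = 0.490).

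4CL1, the ligase of the third step, was the member with the largest change and the only one of the 5 whose groups did not overlap. It had signals of 3356, 362 and 191 in PPA1 replicates 1 to 3, against 143, 103 and 51.6 in control replicates 1 to 3. Groups without overlap were found for 10.8% of all tested probe sets with higher values after PPA1 and for 20.1% with lower values. The mean log2 signals were 9.26 ± 2.17 after PPA1 and 6.51 ± 0.75 in controls (SD, n = 3 each). The log2 change was 2.75, or 6.73-fold, (standard error 1.12) and an interval from -0.01 to 5.51 (limma adjusted p = 0.218). Without PPA1 replicate 1 it was 1.52 (limma adjusted p = 0.142), and PPA1 replicates 2 and 3 alone lay above all controls in 19.3% of all tested probe sets.

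4CL2 encodes a second ligase of the same step. It was dimmer, with signals of 144, 27.4 and 16.5 in PPA1 replicates 1 to 3, against 7.81, 16.6 and 22.6 in control replicates 1 to 3. Control replicate 1 was under the limit for dim signals, control replicate 2 and PPA1 replicate 3 were just above it, and the groups overlapped. The mean log2 signals were 5.33 ± 1.63 after PPA1 and 3.84 ± 0.79 in controls (SD, n = 3 each). The log2 change was 1.49 (standard error 0.89, limma adjusted p = 0.360), and 0.57 without PPA1 replicate 1 (limma adjusted p = 0.519). An offset of 32 on every signal, which damps dim values, brought the log2 change of 4CL2 to 0.75.

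**Figure D2:**
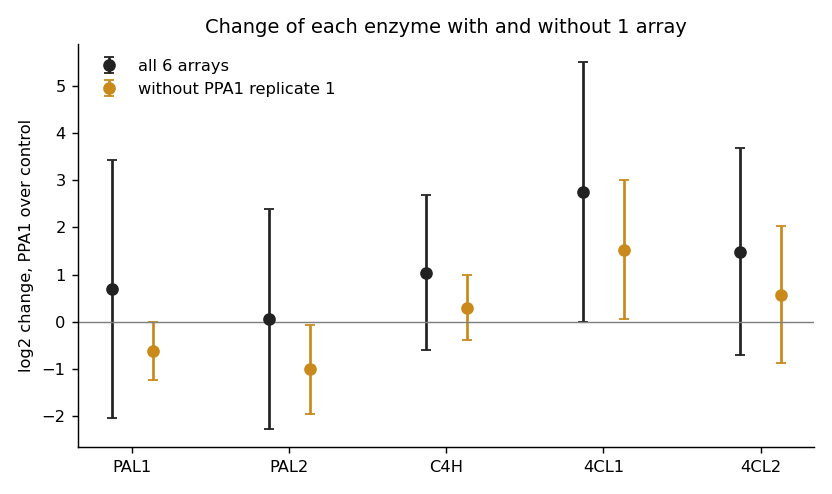
Log2 change (PPA1 over control) of each enzyme with its 95% confidence interval from limma, for all 6 arrays (black) and without PPA1 replicate 1 (orange). The intervals are narrower without that array, PAL1 and PAL2 move to -0.62 and -1.01, and 4CL1 stays above 0 at 1.52.

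The size of the excess on PPA1 replicate 1 was large on the scale of the whole array. Among the 14850 probe sets with an average log2 signal of 4 or more, 147 (0.990%) were at least 2-fold higher on PPA1 replicate 1 than on every other array, and all 5 enzymes were among them. Ranked by this fold, 4CL1 was 1st at 9.27-fold and PAL1 2nd at 8.81-fold. 4CL2 had rank 7 at 5.24-fold, C4H rank 11 at 4.45-fold and PAL2 rank 33 at 3.44-fold. The average behind the limit of 4 runs over all 6 arrays, PPA1 replicate 1 included. 4CL2 averaged 3.84 in controls and 5.33 after PPA1, so it entered this ranking only through its PPA1 signals. No other array had as many probe sets at least 2-fold above the other arrays. Their counts were 1 and 3 for PPA1 replicates 2 and 3, against 19, 10 and 97 for control replicates 1 to 3. PPA1 replicates 2 and 3 were closely alike (r = 0.987 at an average log2 signal of 6 or more). That likeness limits how often either can stand above every other array, so their counts are no measure for PPA1 replicate 1. The ranks of the enzymes describe 1 array and carry no test.

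**Figure D3:**
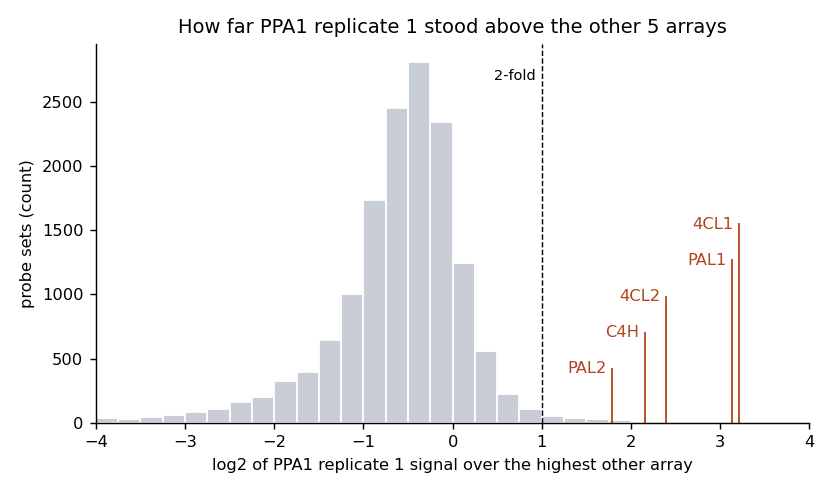
Number of probe sets (average log2 signal of 4 or more) by the log2 ratio of PPA1 replicate 1 to the highest of the other 5 arrays, from -4 upward; the dashed line marks 2-fold. The 5 enzymes, marked by vertical lines, lie at 3.44-fold (PAL2) to 9.27-fold (4CL1), past nearly all other probe sets. 4CL2 passed the limit of 4 only through its PPA1 signals.

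Set against the control means, the enzymes also ranked high on PPA1 replicate 1 and spread out on the other PPA1 arrays. On PPA1 replicate 1, 0.108% of the 14850 probe sets had a larger difference than 4CL1, and 1.47% a larger one than PAL2, the lowest of the 5. On PPA1 replicate 2 these shares were 3.89% for 4CL1, 11.2% for 4CL2, 27.2% for C4H, 62.9% for PAL1 and 80.8% for PAL2. On PPA1 replicate 3 they were 9.70% for 4CL1, 29.4% for 4CL2, 26.2% for C4H, 78.7% for PAL1 and 88.4% for PAL2. The ligase 4CL1 was therefore at the top and the lyase PAL2 at the bottom of the 5 on all 3 PPA1 arrays. A difference of at least 2-fold above the control mean was reached by 5 of 5 enzymes on PPA1 replicate 1, and by 1 of 5, 4CL1, on each of PPA1 replicates 2 and 3. The shares of all 14850 probe sets that reached it were 5.93%, 10.3% and 10.4% on PPA1 replicates 1 to 3. 4CL2 is among these 14850 only through its PPA1 signals.

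Setting each PPA1 array against the control of the same number separates replicate 1 from the rest. It is not settled that the numbers pair the samples, so these differences are description only. The log2 differences for replicate 1 were 3.28 for PAL1, 1.78 for PAL2, 2.15 for C4H, 4.55 for 4CL1 and 4.20 for 4CL2. For 4CL1 the differences in replicates 2 and 3 were 1.82 and 1.89, so all 3 numbered pairs were higher after PPA1. For C4H they were 0.52 and 0.45, and again all 3 pairs were higher. This rests on the numbering, since C4H in PPA1 replicates 2 and 3 was below control replicate 1. For PAL1 they were -0.59 and -0.62, for PAL2 -0.29 and -1.31, and for 4CL2 0.72 and -0.45. Both PAL genes were thus lower after PPA1 in replicates 2 and 3 and higher in replicate 1.

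Differences between the enzymes were compared within arrays, which removes anything that scales a whole array. The change of 4CL1 exceeded that of PAL1 by 2.06 on the log2 scale (PAL1 minus 4CL1, -2.06), and the 3 PPA1 arrays gave -1.89, -2.41 and -1.89. Of the 10 pairs this difference varied least between the PPA1 arrays, with an SD of 0.30, and its SD between controls was 0.62. The SDs of the other pairs between the PPA1 arrays ran from 0.33 (PAL2 minus 4CL2) to 0.99 (PAL1 minus C4H), with 0.94 for C4H minus 4CL1. Each SD rests on 3 arrays, so their order is description only. PAL2 minus 4CL1 gave -2.69, PAL2 minus 4CL2 -1.43, C4H minus 4CL1 -1.71 and PAL2 minus C4H -0.98. In these 5 of 10 pairs the PPA1 and control arrays did not overlap, and the two-sided exact permutation test gave p = 0.1, the smallest that 3 arrays against 3 allow (0.2 adjusted over the 10 pairs). Non-overlap was found in 35.0% of all within-array differences between a member and another probe set with an average log2 signal of 4 or more. PAL1 and PAL2 differed by 0.63 in their changes (exact p = 0.3, 0.375 adjusted) and 4CL1 and 4CL2 by 1.26 (exact p = 0.3, 0.375 adjusted). Without PPA1 replicate 1, PAL1 minus 4CL1 was -2.15, PAL2 minus 4CL1 -2.54, PAL2 minus 4CL2 -1.59, C4H minus 4CL1 -1.23 and PAL2 minus C4H -1.31. The difference between the changes of PAL1 and PAL2 was then 0.39, and that between 4CL1 and 4CL2 0.95.

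As a group, the 5 enzymes had a median log2 change of 1.04, against -0.21 over all tested probe sets. Without PPA1 replicate 1 the medians were 0.29 and -0.26, and 3 of 5 enzymes in place of 5 of 5 had a log2 change above 0. In that fit 0 of 5 enzymes passed (limma adjusted p from 0.132 to 0.519; 3 of 5 at an unadjusted p under 0.05), where 6.32% of all tested probe sets were called higher and 7.51% lower. An unadjusted p under 0.05 was found for 33.3% of all tested probe sets in the same fit.

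Genes upstream and downstream of the 3 steps were listed by locus. Of 47 such loci, 5 could be matched to a probe set through the gene table, so the others, including PAL3, PAL4, 4CL3, 4CL5, the P450 reductases and the flavonoid entry genes, were not analysed here. None of the 5 passed the test with all arrays (limma adjusted p from 0.565 to 0.957). At an unadjusted limma p under 0.05 the count was 0, against 23.0% of all tested probe sets. Without PPA1 replicate 1, again 0 of 5 passed (limma adjusted p from 0.686 to 0.902). At an unadjusted limma p under 0.05 the count was then 0, against 33.3% of all tested probe sets. All 5 log2 changes were below 0 in that fit, with a median of -0.20, against -0.26 over all tested probe sets. Of the 5, 3 were at least 2-fold above every other array on PPA1 replicate 1, where 0.990% of probe sets were. They were HCT, DHS3 and DHQS.

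HCT, the hydroxycinnamoyl transferase that leads p-coumaroyl-CoA towards lignin, had signals of 2253, 390 and 350 in PPA1 replicates 1 to 3, against 500, 331 and 362 in control replicates 1 to 3. It had rank 9 of 14850 by its 4.51-fold excess on PPA1 replicate 1, between the ligase 4CL2 and C4H. Its log2 change was 0.79 with all arrays (limma adjusted p = 0.565) and -0.08 without PPA1 replicate 1 (limma adjusted p = 0.848). DHS3 (AT1G22410) is annotated as a 3-deoxy-D-arabino-heptulosonate synthase, the first enzyme of the shikimate pathway that supplies phenylalanine. It had signals of 2926, 853 and 714 in PPA1 replicates 1 to 3, against 1262, 1082 and 529 in control replicates 1 to 3. DHQS (AT5G66120), the dehydroquinate synthase that acts next in that pathway, had 430, 207 and 175 in PPA1 replicates 1 to 3, against 189, 204 and 193 in control replicates 1 to 3. Their ranks were 106 and 137, and the other PPA1 arrays lay within the control range for DHS3 and around it for DHQS. The log2 change of DHS3 was 0.43 with all arrays and -0.20 without PPA1 replicate 1, and that of DHQS was 0.35 and -0.04.

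CCR2, a cinnamoyl-CoA reductase linked to defence, had signals of 318, 44.0 and 33.5 in PPA1 replicates 1 to 3, against 183, 33.8 and 19.6 in control replicates 1 to 3. Here the replicate 1 array was the highest in both conditions, and PPA1 replicate 1 was 1.73-fold above the next array. The log2 change of CCR2 was 0.65 with all arrays and -0.37 without PPA1 replicate 1. ALDH2C4, which oxidises hydroxycinnamaldehydes to ferulate and sinapate, was near the limit of dim signals and varied without order, with 27.6, 23.4 and 8.06 in PPA1 replicates 1 to 3, against 18.3, 12.1 and 26.8 in control replicates 1 to 3. Its log2 change was -0.06 with all arrays and -0.40 without PPA1 replicate 1.

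**Figure D4:**
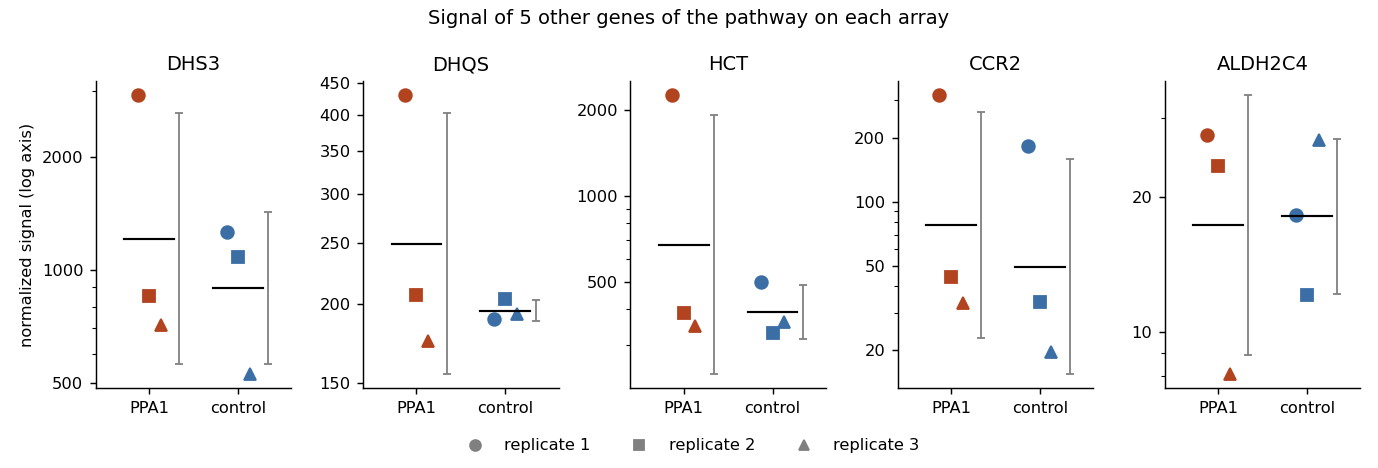
Normalized signal (log axis) of DHS3, DHQS, HCT, CCR2 and ALDH2C4 on each array, PPA1 at the left and control at the right of each panel, with the replicate shown by shape, the mean of log2 signals as a line and its SD in grey (n = 3 each). DHS3, DHQS and HCT have 1 high array, PPA1 replicate 1; CCR2 is high on both replicate 1 arrays.

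The probe sets most like the mean profile of the 5 enzymes were ranked by Pearson correlation over the 6 arrays, among 10131 others with an average log2 signal of 6 or more. The likeness rests on PPA1 replicate 1, which is the highest array in each case. DHQS was 4th with r = 0.988, and AT4G24930 was 1st with r = 0.996. AT4G24930 had smaller differences than the enzymes, with 169, 95.7 and 83.6 in PPA1 replicates 1 to 3, against 84.7, 86.9 and 85.4 in control replicates 1 to 3. The other 3 of the top 5, 245832_at, 252831_at and 259306_at, are not in the gene table used here, and had r = 0.990, 0.989 and 0.988.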

How the data were processed

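The authors deposited normalized intensity values per probe set on a linear scale; per the submitters' processing notes they used GCRMA, which models background from probe sequence, in a version not given in the sources used here. Dim signals therefore depend on that background step. RNA was amplified and labelled with biotin, 1 sample per array, per the labels' protocols. Signals were log2-transformed without an offset. The 64 manufacturer controls were left out, and limma 3.58.1 (R 4.3.3; lmFit, then eBayes) was run on 22746 probe sets, with condition as the only term, two-sided, with Benjamini-Hochberg adjustment over all 22746 and a threshold of 0.05. The fit was tested on simulated data. Exact permutation tests, ranks and figures used numpy 2.4.6, matplotlib 3.10.9 and pandas 2.3.3 under Python 3.11.15. With 3 arrays per group, their number limits the precision, and p-values reflect only the spread between these samples, which may be technical.

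The members were taken by identifier and the pathway genes by locus; members, lists and tests were all chosen with earlier results of these data known. The named genes are the 5 members, the listed pathway genes with a probe set and the 5 probe sets most like the members. The members' gene names came with the choice of probe sets, since the gene table, dated after the array, lists 0 of 5; it pairs 13513 probe sets with 1 gene and 503 with several, and 8730 tested probe sets are not in it. All 5 loci are in the RefSeq gene table (assembly TAIR10.1). A further list of 10 genes that use hydroxycinnamates, and 4CL8, were added after the gene table was seen. Sequences and promoter motifs were not analysed here. Within same-numbered pairs of arrays, deviations from the group mean had correlations of 0.06, 0.03 and 0.02 over all tested probe sets, and of 0.16, 0.24 and 0.15 at a mean log2 of at least 6, so it is not settled that the numbers pair the samples.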

Additional observations from a re-analysis of the deposited data

How the results depend on the processing

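Of the 5 enzymes, C4H, 4CL1 and 4CL2 were higher after PPA1 under all alternatives run, with log2 changes of 0.29 to 1.42, 1.52 to 3.59 and 0.13 to 2.13. PAL1 and PAL2 turned negative with array weights (-0.40 and -0.56) and in replicates 2 and 3 alone (-0.61 and -0.80). Leaving out 1 array gave -0.62 to 1.45 for PAL1 and -1.01 to 0.68 for PAL2, negative without PPA1 replicate 1 for both and without control replicate 2 for PAL2 (-0.22). With the replicate block the log2 changes were 0.69, 0.06, 1.04, 2.75 and 1.49 for PAL1, PAL2, C4H, 4CL1 and 4CL2, as without it, and 0 of 5 passed (limma adjusted p from 0.183 to 0.966). Joined to a robust variance trend the replicate block called 1 enzyme higher, 4CL1 (2.75, limma adjusted p = 0.0472, where all alternatives gave up to 0.391). That fit called 833 of 22746 probe sets higher and 1096 lower, against 184 and 226 in the fit with condition as the only term. Leaving out 1 array gave 0 enzymes higher and 0 to 1 lower: PAL2 passed (limma adjusted p = 0.0465) without PPA1 replicate 1 at a mean log2 of at least 4, a fit that called 3415 of 14850 probe sets (23.0%) lower. Median centring shifted all log2 changes up by about the median of all probe sets (0.90, 0.27, 1.25, 2.96 and 1.70 in the same order). No difference between enzymes turned its sign under quantile normalization or without PPA1 replicate 1, the latter chosen after seeing the data; PAL2 and C4H overlapped after quantile normalization (-0.78, exact p = 0.2).

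Over all tested probe sets, 184 were higher and 226 lower. Which direction held more calls turned with the scaling, the terms of the fit and the arrays used. After median centring 239 were higher and 154 lower, and after quantile normalization 205 and 182. On the unchanged scale, replicate 1 against the rest as a block gave 166 and 163. Counts were 801 and 1305 at a mean log2 of at least 4, 802 and 1046 at 6 or more, 748 and 1349 with 32 added, 791 and 1171 with the robust variance trend, 2130 and 3324 with array weights, and 769 and 640 in replicates 2 and 3 alone. The replicate block gave 0 and 0 (limma; 0 of the 5 enzymes at an adjusted p under 0.05), 610 and 947 with the mean log2 limit of 4, and 833 and 1096 with the trend. Leaving out 1 array gave 0 to 2220 higher and 0 to 3415 lower. The cause of these moves was not tested.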

Other observations

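Of 10 genes that use hydroxycinnamates after the entry steps, chosen after the gene table was seen, 3 averaged 4 or more in log2 signal. With all arrays, 0 of 10 passed the test (limma, adjusted over all tested probe sets). At an unadjusted limma p under 0.05 the count was 1, against 23.0% of the 22746 probe sets. The list had a median log2 change of -0.09, against -0.21 over all tested probe sets. Leaving out PPA1 replicate 1, the list's median was 0.0024, against -0.26 over all tested probe sets. In that fit 1 of 10, FACT, passed as lower, at dim signals. Of the 22746 probe sets, 7.51% were called lower and 6.32% higher in the same fit. SDT was the 1 gene of the 10 at least 2-fold above every other array on PPA1 replicate 1, by 3.91-fold at dim signals. It had signals of 2.95, 0.742 and 0.569 in PPA1 replicates 1 to 3, against 0.480, 0.568 and 0.755 in control replicates 1 to 3. The share of 0.990% given for this excess covers only probe sets averaging 4 or more in log2 signal, so it is no background for SDT. In log2 signal, 7 of 10 averaged under 4. UGT84A3, which makes glucose esters of hydroxycinnamates, was the 1 gene of the 10 whose groups did not overlap in either direction. Of all tested probe sets, 10.8% had groups without overlap and higher values after PPA1, and 20.1% had lower values. UGT84A3 had signals of 140, 107 and 108 in PPA1 replicates 1 to 3, against 71.4, 56.8 and 61.5 in control replicates 1 to 3. Its log2 change was 0.90 with all arrays (limma adjusted p = 0.0973) and 0.77 without PPA1 replicate 1 (limma adjusted p = 0.0658), so all PPA1 arrays were similarly high.

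FACT, which transfers caffeate to fatty alcohols, had signals of 22.5, 2.05 and 2.45 in PPA1 replicates 1 to 3, against 11.8, 20.6 and 8.86 in control replicates 1 to 3. PPA1 replicates 2 and 3 were below all controls and PPA1 replicate 1 was above them, as for PAL1 and PAL2, but at dim signals. Its log2 change was -1.42 with all arrays (limma adjusted p = 0.427) and -2.53 without PPA1 replicate 1, where it passed (limma adjusted p = 0.0298). 4CL8, named as a 4CL-like gene in the gene table, was at 16.9, 10.8 and 18.3 in PPA1 replicates 1 to 3, against 16.6, 14.2 and 8.58 in control replicates 1 to 3, with overlapping groups.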
